A study of Homo sapiens with 6 samples.

Results

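The genes described here are 47 genes of DNA replication and of the passage from G1 into S phase, taken by their gene names from a deposited expression table of 58735 genes. They were grouped by role into 8 genes of origin licensing, 12 of the replicative helicase, 6 of the polymerases and primase, 6 of the sliding clamp and its loader, 5 of single-strand DNA binding, flap removal and ligation, 4 of nucleotide supply and 6 regulators of G1/S. Polyadenylated RNA was sequenced from A375, an established human melanoma cell line. The 3 CuB libraries came from cells treated for 6 h with CuB (cucurbitacin B, a plant triterpenoid), and the 3 DMSO libraries came from cells given only the vehicle for 6 h. The protocol gives 0.2 µM CuB, whereas the library names give 100 nM, so the dose is not settled. The labels do not say whether replicates were separate cultures, so p-values measure only the spread between these libraries, which may be technical.

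Origins of replication are licensed in G1, when the origin recognition complex, CDC6 and CDT1 load the MCM2-7 ring onto DNA. In S phase CDC45 and the GINS complex join the ring to form the active helicase, primase and DNA polymerases copy the strands, and the clamp loader places the PCNA clamp that holds the polymerases on DNA. Many of these genes are classic targets of E2F factors, which the RB pathway holds in check until cells commit to S phase.

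Values are FPKM, a level per length of gene in which library size is also divided out, as the authors deposited them, and are given in the order of replicates 1, 2 and 3. Log2 fold changes are CuB minus DMSO on the log2(FPKM + 1) scale, which understates changes of low genes. Recovered totals were 15502971, 16072462 and 16137093 fragments in the CuB libraries and 14845976, 15797757 and 15116550 fragments in the DMSO libraries. Reading the FPKM values backwards gave library sizes of 0.914 to 0.927 times the fragment total with CuB and 1.03 to 1.04 times the total with DMSO. Scaling all libraries to equal fragment totals moved the median log2 fold change of all genes by -0.139. Within each group libraries differed by the GC content of transcripts, with Spearman correlations of their deviations from the group mean with GC of -0.667, 0.262 and 0.648 in CuB replicates 1 to 3 and -0.542, 0.774 and -0.703 in DMSO replicates 1 to 3 (13265 genes). Of 9 melanocyte lineage markers, SOX10 averaged 218 ± 31.1 FPKM with CuB and 198 ± 50.4 FPKM with DMSO (SD, n = 3 each), whereas PMEL, TYR, DCT and TYRP1 lay under 0.27 FPKM in every library. The 9 markers summed to 199 to 259 FPKM with CuB and 199 to 291 FPKM with DMSO. Most of each sum was SOX10, at 184 to 245 FPKM with CuB and 162 to 256 FPKM with DMSO. Of the 4 tested, S100B (6.64 ± 0.161 FPKM with CuB and 26.4 ± 1.61 FPKM with DMSO, adjusted p = 1.27e-05) and S100A1 (1.91 ± 0.341 FPKM with CuB and 4.80 ± 1.28 FPKM with DMSO, adjusted p = 0.0046) were lower with CuB. MITF (4.42 ± 0.712 FPKM with CuB and 3.96 ± 0.467 FPKM with DMSO, adjusted p = 0.475) and SOX10 (adjusted p = 0.535) did not pass. MLANA, not tested, averaged 0.981 ± 0.307 FPKM with CuB and 0.656 ± 0.0816 FPKM with DMSO. None of 8 markers of other cell types (PTPRC, CD3E, CD68, EPCAM, KRT5, COL1A1, PECAM1 and HBB) reached a mean of 1 FPKM. Their sums were 0.2998 to 0.466 FPKM with CuB and 0.538 to 0.672 FPKM with DMSO, and HBB was at 0 in all 6 libraries. The part of these markers in the results below was not tested.

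All 47 genes passed the filter of a mean of at least 1 FPKM, and in every library each of them had at least 160 fragments. With CuB 17 of the 47 rose and 3 fell, at an adjusted p of 0.05 in limma's moderated test over 13273 genes. The share called, 42.6%, was close to the 38.6% of all tested genes. The direction was more uneven: 36.2% of the replication genes were called higher, beside 22.9% of all tested genes. Called lower were 6.38%, beside 15.6%. Among genes averaging at least 5 FPKM, 18 of 42 replication genes rose and 3 fell, beside 2265 and 985 of 7713 tested genes. Of those calls 85.7% were higher, beside 69.7% for all tested genes, against 85.0% and 59.5% with the filter of 1 FPKM. Median log2 fold changes at the minimum of 5 FPKM were 0.320 and 0.127. The median log2 fold change was 0.263 over the 47 genes and 0.0548 over all tested genes, and 39 of the 47 had a positive value. In 20 genes (42.6%, beside 29.8% of all tested genes) the lowest CuB library exceeded the highest DMSO library, and in 5 (10.6%, beside 21.7%) the reverse held, so the groups did not overlap in 25 genes (53.2%, beside 51.5%). Fold changes were small, and only MCM5 both passed the test and reached 2-fold (2.13% of the 47, beside 7.24% of all tested genes). The counts rested in part on single libraries: 10 genes were called higher and 0 lower without CuB replicate 2 or without DMSO replicate 1, and 11 higher and 3 lower without CuB replicate 3. Without CuB replicate 1 they were 15 higher and 1 lower, without DMSO replicate 3 12 higher and 1 lower, and without DMSO replicate 2 21 higher and 3 lower. Of the 47 genes 34.0%, 21.3% and 29.8% were called without CuB replicates 1 to 3, beside 32.9%, 24.6% and 29.5% of all tested genes. Without DMSO replicates 1 to 3 these shares were 21.3%, 51.1% and 27.7%, beside 26.2%, 43.4% and 30.3%.

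The split depended on scaling. Of the called replication genes 85.0% were higher, beside 59.5% of all called genes. After rescaling of the libraries to 1 common sum these shares were 76.5% and 46.7%, with quantile normalization 57.1% and 47.2%, and with equal fragment totals 62.5% and 39.3%. The calls at equal fragment totals were 10 higher and 6 lower, beside 2021 higher and 3128 lower of 13273 tested genes. Quantile normalization gave 8 higher and 6 lower, beside 2242 and 2509. A common sum gave 13 higher and 4 lower, beside 2323 and 2653. The share of the 47 genes called lay below that of all tested genes in each rescaling. It was 36.2% beside 37.5% with a common sum, 29.8% beside 35.8% with quantile normalization and 34.0% beside 38.8% with equal fragment totals. Bulk RNA cannot tell a larger share of cells in S phase from more RNA per cell.

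**Figure D1:**
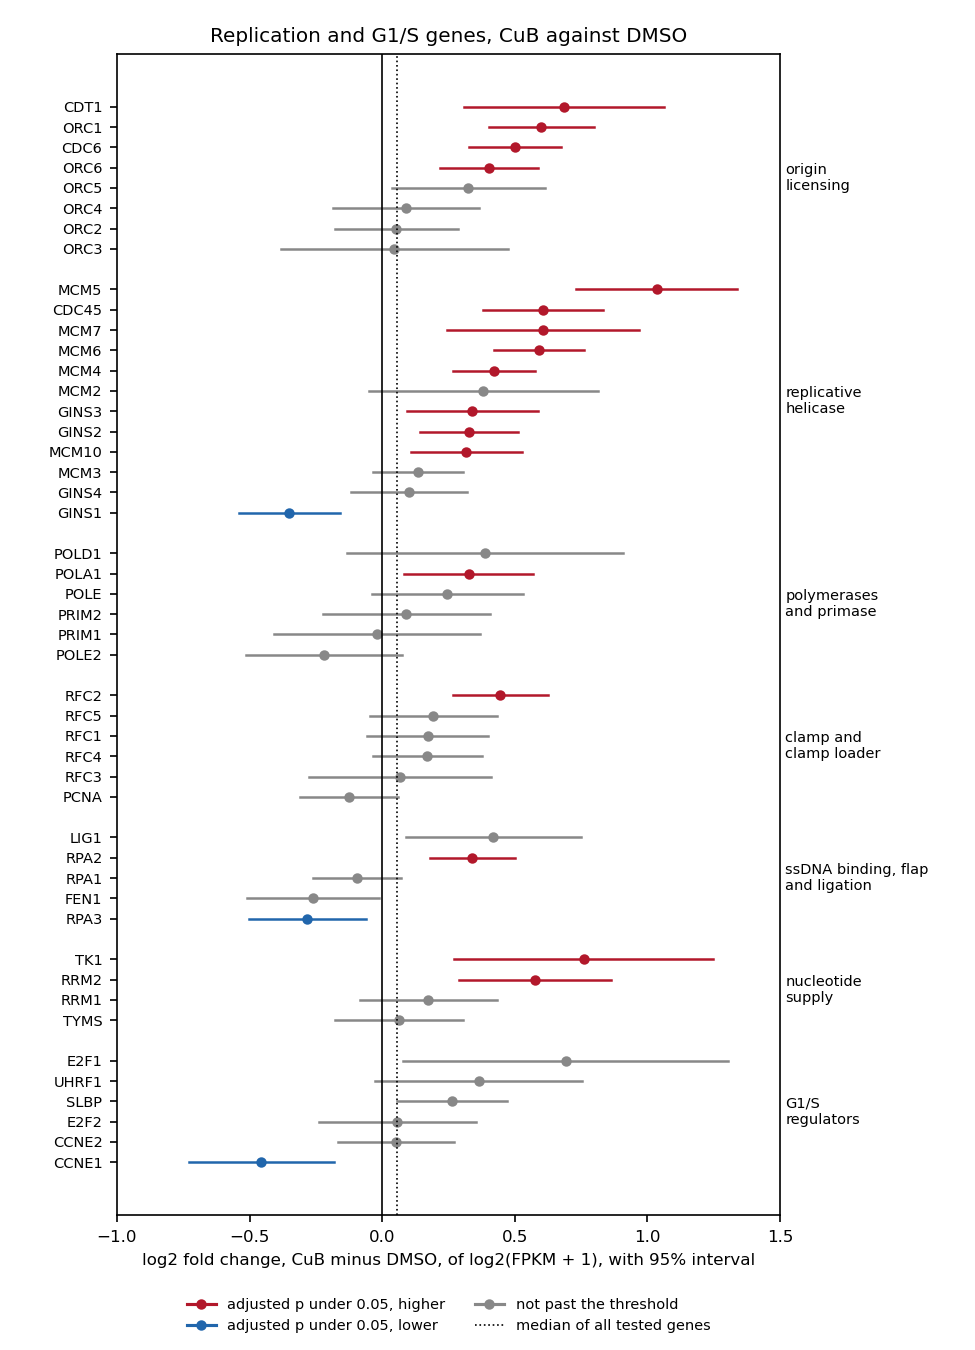
Log2 fold change (CuB minus DMSO, of log2(FPKM + 1)) with its 95% interval for each of the 47 genes, grouped by role; red marks genes called higher, blue genes called lower, grey genes past neither, and the dotted line the median of all tested genes (0.0548). Most points of origin licensing and the helicase lie to the right, MCM5 being farthest at 1.03, while CCNE1, GINS1 and RPA3 are the 3 blue points on the left.

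Origin licensing rose in part. Of its 8 genes 4 rose (50%, beside 22.9% of all tested genes) and none fell (beside 15.6%). The median log2 fold change was 0.364. The rises were in CDC6, CDT1, ORC1 and ORC6. ORC1, the subunit of the origin recognition complex whose level is known to vary through the cell cycle (chr1:52372829-52404459, minus strand, ENSG00000085840, GRCh38), had 19.6, 22.9 and 21.2 FPKM in the CuB libraries, against 13.8, 13.3 and 13.7 FPKM in the DMSO libraries. All CuB values stood well above all DMSO values, and the DMSO values lay close together. The means were 21.2 ± 1.68 FPKM with CuB and 13.6 ± 0.261 FPKM with DMSO (SD, n = 3 each), a log2 fold change of 0.60 (SE 0.0841, 95% interval 0.40 to 0.80, adjusted p = 0.00189).

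CDC6, the ATPase that works with the origin recognition complex to load MCM2-7 (chr17:40287633-40304657, plus strand, ENSG00000094804), had 24.2, 24.7 and 23.8 FPKM in the CuB libraries, against 17.5, 16.1 and 17.0 FPKM in the DMSO libraries. The groups stood apart with little spread inside either (log2 fold change 0.50, SE 0.073, adjusted p = 0.00219). CDT1, the loading partner that geminin inhibits (chr16:88803213-88809258, plus strand, ENSG00000167513), had 22.1, 26.9 and 30.4 FPKM in the CuB libraries, against 14.7, 19.6 and 14.1 FPKM in the DMSO libraries. Its lowest CuB value still exceeded its highest DMSO value, but both groups were wide (log2 fold change 0.69, SE 0.16, adjusted p = 0.0143). The CDT1 call was lost, at an adjusted p of 0.0539 without CuB replicate 2 and 0.0551 without DMSO replicate 1. ORC6, the smallest subunit of the complex (chr16:46689643-46698394, plus strand, ENSG00000091651), had 16.8, 16.1 and 14.96 FPKM in the CuB libraries, against 11.8, 11.9 and 11.7 FPKM in the DMSO libraries. Its groups did not overlap (log2 fold change 0.40, SE 0.078, adjusted p = 0.00708).

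The other subunits of the origin recognition complex did not pass. ORC5 had 13.1, 11.6 and 11.1 FPKM in the CuB libraries, against 10.1, 7.79 and 10.2 FPKM in the DMSO libraries, which do not overlap, with a log2 fold change of 0.32 and an adjusted p of 0.0747. ORC2 averaged 8.56 ± 0.543 FPKM with CuB and 8.23 ± 0.819 FPKM with DMSO, ORC3 7.41 ± 1.27 FPKM with CuB and 7.21 ± 1.66 FPKM with DMSO and ORC4 5.32 ± 0.675 FPKM with CuB and 4.93 ± 0.544 FPKM with DMSO (SD, n = 3 each). Their groups overlapped, and the 95% intervals of the log2 fold change were -0.18 to 0.28 for ORC2, -0.38 to 0.47 for ORC3 and -0.19 to 0.37 for ORC4. Within this complex, then, the calls were in ORC1 and ORC6, and their difference from the other subunits was not tested.

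The replicative helicase, the largest of the groups, held the most calls. Of its 12 genes 8 rose (66.7%, beside 22.9% of all tested genes), 1 fell (8.33%, beside 15.6%) and 3 did not pass. The median log2 fold change was 0.361. MCM5, a subunit of the MCM2-7 ring (chr22:35400063-35425430, plus strand, ENSG00000100297), had 21.1, 24.3 and 25.6 FPKM in the CuB libraries, against 9.997, 13.2 and 10.1 FPKM in the DMSO libraries. Every CuB value was far above every DMSO value. The ratio of means was 2.13 and the log2 fold change 1.03 (SE 0.129, 95% interval 0.73 to 1.34, adjusted p = 0.00115). At equal fragment totals the log2 fold change of MCM5 was 0.88 (adjusted p = 0.00245).

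MCM6 (chr2:135839626-135876426, minus strand, ENSG00000076003) had 35.4, 36.5 and 36.9 FPKM in the CuB libraries, against 24.0, 22.7 and 24.5 FPKM in the DMSO libraries. These groups were tight and far apart, which gave the lowest adjusted p of the 47 genes (log2 fold change 0.59, SE 0.0716, adjusted p = 0.00103). MCM4, on chromosome 8 (ENSG00000104738), had 63.9, 66.1 and 67.1 FPKM in the CuB libraries, against 48.1, 48.7 and 49.7 FPKM in the DMSO libraries, again without overlap (log2 fold change 0.42, SE 0.0656, adjusted p = 0.0029). Under quantile normalization the MCM4 call was lost (adjusted p = 0.0697).

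MCM7, the most abundant ring gene per length (chr7:100092728-100101940, minus strand, ENSG00000166508), had 109, 130.1 and 141 FPKM in the CuB libraries, against 75.5, 102 and 72.9 FPKM in the DMSO libraries. The groups did not overlap, with CuB replicate 1 the lowest CuB library and DMSO replicate 2 the highest DMSO library (log2 fold change 0.61, SE 0.153, adjusted p = 0.0198). The MCM7 adjusted p was 0.0694 without CuB replicate 2, 0.0631 without CuB replicate 3, 0.0719 without DMSO replicate 1 and 0.0609 without DMSO replicate 3, and 0.0605 with no filter on low values, 0.0944 with quantile normalization and 0.0623 with equal fragment totals. MCM2 had 30.1, 40.2 and 42.8 FPKM in the CuB libraries, against 26.1, 35.9 and 24.4 FPKM in the DMSO libraries, which overlap through CuB replicate 1 and DMSO replicate 2, and did not pass (log2 fold change 0.38, 95% interval -0.05 to 0.81, adjusted p = 0.142). Without DMSO replicate 2 MCM2 passed (adjusted p = 0.0301). In all it passed under 3 of 17 alternative settings, and under none of the 3 rescalings (adjusted p of 0.274 to 0.454). MCM3 had 49.8, 48.8 and 53.2 FPKM in the CuB libraries, against 46.8, 46.7 and 44.6 FPKM in the DMSO libraries, a small difference without overlap (log2 fold change 0.13, adjusted p = 0.181).

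Exonic bases are shared with neighbouring genes in some of these: 23.6% of MCM2 with TPRA1 and a further transcript, and 8.94% of MCM7 with AP4M1, both on the opposite strand. Strand is not recorded by the kit, and fragments from these stretches could belong to either gene. The largest such shares elsewhere, beside those named with RRM2 and TYMS below, were 37.1% in CCNE2, 23.6% in GINS4 and 21.6% in PRIM1.

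**Figure D2:**
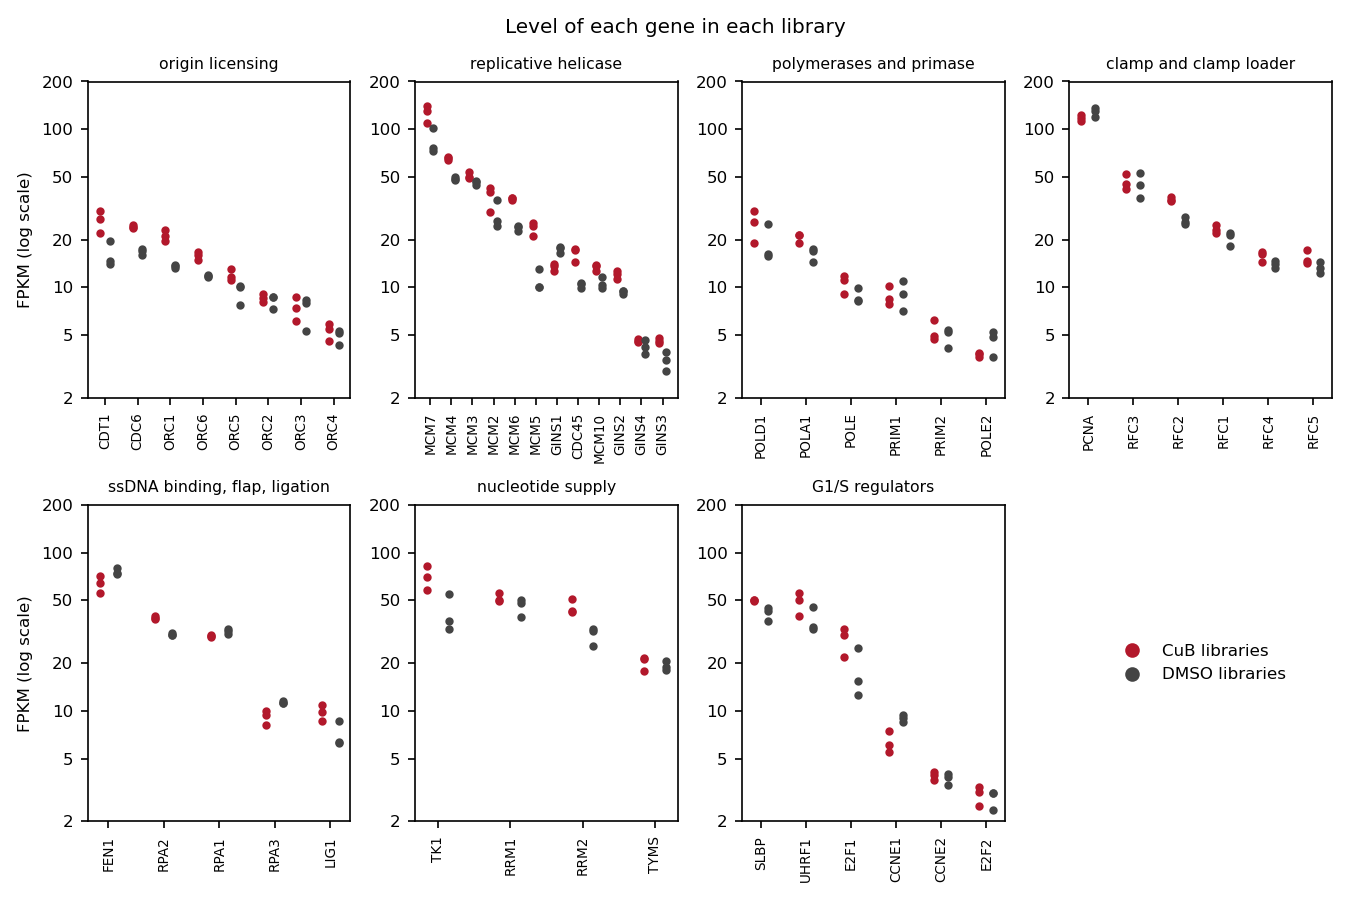
FPKM of each gene on a log scale, in a panel for each role and ordered by mean level within it, with the 3 CuB libraries as red points left of the 3 DMSO libraries as grey points. MCM7 and PCNA are the genes above 100 FPKM in most libraries, and the red points of MCM5 and MCM6 stand clear of the grey ones.

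The factors that turn the loaded ring into an active helicase moved in both directions. CDC45 (chr22:19479459-19520612, plus strand, ENSG00000093009) had 14.4, 17.2 and 17.4 FPKM in the CuB libraries, against 10.6, 9.94 and 10.5 FPKM in the DMSO libraries. All CuB values were above all DMSO values (log2 fold change 0.61, SE 0.0959, adjusted p = 0.00308). MCM10, which helps to activate the assembled helicase, had 13.7, 12.7 and 13.8 FPKM in the CuB libraries, against 10.3, 9.87 and 11.6 FPKM in the DMSO libraries, also without overlap (log2 fold change 0.32, SE 0.0886, adjusted p = 0.0284). The MCM10 adjusted p was 0.0725 without CuB replicate 1, 0.07 without CuB replicate 2, 0.0912 without CuB replicate 3 and 0.104 without DMSO replicate 1, and 0.0884 after rescaling to a common sum, 0.183 with quantile normalization and 0.181 with equal fragment totals. With the replicate number as a block it was 0.0596.

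The 4 subunits of the GINS complex, which act together in the cell, did not all move the same way: 1 fell, 2 rose and 1 did not pass. GINS1 fell (chr20:25407727-25452628, plus strand, ENSG00000101003), with 13.7, 12.7 and 14.1 FPKM in the CuB libraries, against 18.0, 16.6 and 17.8 FPKM in the DMSO libraries. Every CuB value was below every DMSO value (log2 fold change -0.35, SE 0.0801, adjusted p = 0.0136, 95% interval -0.54 to -0.16). Its adjusted p was 0.074 without CuB replicate 2 and 0.0653 without DMSO replicate 1. GINS2 rose, with 12.1, 11.2 and 12.6 FPKM in the CuB libraries, against 9.44, 9.43 and 9.15 FPKM in the DMSO libraries (log2 fold change 0.33, SE 0.0785, adjusted p = 0.0161). GINS3 rose, with 4.42, 4.60 and 4.76 FPKM in the CuB libraries, against 3.46, 3.89 and 2.95 FPKM in the DMSO libraries (log2 fold change 0.34, SE 0.104, adjusted p = 0.0386). For both the groups did not overlap. GINS4, on chromosome 8, had 4.58, 4.49 and 4.75 FPKM in the CuB libraries, against 3.82, 4.22 and 4.67 FPKM in the DMSO libraries, which overlap (log2 fold change 0.10, 95% interval -0.12 to 0.32, adjusted p = 0.416).

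The direction of GINS1 was the same under all 3 rescalings, with log2 fold changes of -0.50 at equal fragment totals and -0.51 under quantile normalization. The rises of GINS2 and GINS3 rested on more choices. For GINS2 the adjusted p was 0.0643 without CuB replicate 3, 0.061 without DMSO replicate 1 and 0.0551 without DMSO replicate 3, and 0.0521 after rescaling to a common sum, 0.118 with quantile normalization and 0.115 with equal fragment totals. With the replicate number as a block it was 0.0571. For GINS3 it was 0.068 without CuB replicate 1, 0.117 without CuB replicate 2, 0.111 without CuB replicate 3, 0.101 without DMSO replicate 1 and 0.109 without DMSO replicate 3, and 0.0524 to 0.161 under 5 further settings without a replicate block, namely no filter, a common sum, quantile normalization, equal fragment totals and GC correction, and GINS3 was not tested at a minimum of 5 FPKM.

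Promoters of 41 of the 47 genes were found in RefSeq (GRCh38.p14), from 250 bases before to 50 bases after the start site. Letters of the E2F motif (TTTCCCGC, TTTGGCGC, TTTGCCGC or TTTCGCGC, on either strand, where matches can overlap each other) were present in 20 of the 41 genes (48.8%), beside 3.99% of 27305 genes with a promoter there. Those not matched in the table were CCNE2, GINS4, MCM4, MCM5, RPA2 and RPA3. Of the 41, 7 of 14 genes that rose held a match, as did 1 of 2 that fell and 12 of 25 that were not called. Of 28 matches 21 began within 100 bases of the start site, and they ranged from -187 to +15. The promoters of 4 genes are shown, since they hold the letters in genes that rose (MCM6, CDC6), fell (GINS1) and did not pass (PCNA), with the E2F letters in capitals, 5′ to 3′ on the strand of the gene.
MCM6, chr2:135876394-135876693, minus strand: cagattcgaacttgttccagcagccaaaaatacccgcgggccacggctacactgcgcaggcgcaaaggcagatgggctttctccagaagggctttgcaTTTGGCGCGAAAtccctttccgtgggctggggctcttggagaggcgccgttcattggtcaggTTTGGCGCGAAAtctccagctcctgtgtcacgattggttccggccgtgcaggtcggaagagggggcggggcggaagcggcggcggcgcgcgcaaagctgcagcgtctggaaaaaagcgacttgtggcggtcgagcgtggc
CDC6, chr17:40287629-40287928, plus strand: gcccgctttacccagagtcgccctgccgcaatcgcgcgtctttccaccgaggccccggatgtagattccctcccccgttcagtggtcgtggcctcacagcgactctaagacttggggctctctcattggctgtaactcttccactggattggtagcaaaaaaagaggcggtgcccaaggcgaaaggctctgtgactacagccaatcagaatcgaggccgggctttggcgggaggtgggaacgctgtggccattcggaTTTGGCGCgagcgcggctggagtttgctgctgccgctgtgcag
GINS1, chr20:25407423-25407722, plus strand: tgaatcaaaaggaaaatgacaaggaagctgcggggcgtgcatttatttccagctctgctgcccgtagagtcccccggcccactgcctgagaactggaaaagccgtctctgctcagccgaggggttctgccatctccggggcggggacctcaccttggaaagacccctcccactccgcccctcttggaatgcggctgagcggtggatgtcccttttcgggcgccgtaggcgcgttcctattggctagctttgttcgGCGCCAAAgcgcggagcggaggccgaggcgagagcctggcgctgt
PCNA, chr20:5126573-5126872, minus strand: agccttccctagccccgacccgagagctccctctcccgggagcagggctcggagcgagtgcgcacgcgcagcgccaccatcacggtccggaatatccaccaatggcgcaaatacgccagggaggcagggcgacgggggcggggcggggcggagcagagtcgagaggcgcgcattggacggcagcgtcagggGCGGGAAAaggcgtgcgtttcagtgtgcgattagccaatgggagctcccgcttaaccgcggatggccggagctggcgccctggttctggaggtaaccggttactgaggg
MCM6 has 4 matches in overlapping pairs, whereas the other shown promoters have 1 each, that of GINS1 lying between bases 6 and 13 after the start site.

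Other letters were searched on both strands in the same windows. CCAAT was in 24 of the 41 genes (58.5%), beside 39.7% of all genes. In MCM7 a CCAAT match and an E2F match overlap at their ends. TGACGTCA, the cAMP response element, which reads the same on both strands, was in 3 (7.32%, beside 2.25%), namely MCM10, RFC1 and RFC3. TTTGAA, the core of the cell cycle homology region found in many G2/M promoters, was in RRM1 alone (2.44%, beside 18.2%). TGACTCA or TGAGTCA, the AP-1 site, was in 0 of the 41, beside 6.05% of all genes. A match of letters is not a bound site.

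Polymerase and primase genes mostly did not pass: of 6, 1 rose (16.7%, beside 22.9% of all tested genes) and none fell (beside 15.6%). Their median log2 fold change was 0.168. POLA1, the catalytic subunit of the polymerase alpha that extends primers (chrX:24693919-24996986, plus strand, ENSG00000101868), had 21.5, 21.6 and 19.0 FPKM in the CuB libraries, against 17.5, 14.4 and 17.1 FPKM in the DMSO libraries. The CuB values were above the DMSO values by a small margin (log2 fold change 0.33, SE 0.103, adjusted p = 0.0427). That call did not last when any of the 6 libraries was left out, with an adjusted p of 0.106 without CuB replicate 1, 0.148 without CuB replicate 2, 0.0536 without CuB replicate 3, 0.0697 without DMSO replicate 1, 0.058 without DMSO replicate 2 and 0.0716 without DMSO replicate 3. It was also lost, at 0.0513 to 0.312 under 5 further settings without a replicate block, namely no filter, a common sum, quantile normalization, equal fragment totals and no intensity trend.

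POLD1, the catalytic subunit of polymerase delta, which copies the lagging strand, had 19.2, 25.8 and 30.5 FPKM in the CuB libraries, against 16.4, 25.1 and 15.8 FPKM in the DMSO libraries. The groups overlapped, with CuB replicate 1 low and DMSO replicate 2 high (log2 fold change 0.39, SE 0.22, adjusted p = 0.205). POLD1 passed without DMSO replicate 2 (adjusted p = 0.0412). That was 1 of 3 passes under 17 alternative settings, with none under the 3 rescalings (adjusted p of 0.346 to 0.510). POLE, the catalytic subunit of the leading-strand polymerase epsilon, had 9.04, 11.2 and 11.7 FPKM in the CuB libraries, against 8.34, 9.85 and 8.21 FPKM in the DMSO libraries, with overlap (log2 fold change 0.25, SE 0.12, adjusted p = 0.15). Its accessory subunit POLE2 had 3.82, 3.64 and 3.85 FPKM in the CuB libraries, against 5.25, 3.66 and 4.88 FPKM in the DMSO libraries. There the higher DMSO libraries were replicates 1 and 3 (log2 fold change -0.22, SE 0.125, adjusted p = 0.205). Without DMSO replicate 2 POLE2 was called lower (adjusted p = 0.0197), the only 1 of 16 alternative settings in which it passed. The primase subunits averaged 8.85 ± 1.22 FPKM with CuB and 9.07 ± 1.99 FPKM with DMSO for PRIM1 and 5.31 ± 0.829 FPKM with CuB and 4.92 ± 0.695 FPKM with DMSO for PRIM2 (SD, n = 3 each). The 95% intervals of their log2 fold changes were -0.41 to 0.37 for PRIM1 and -0.22 to 0.41 for PRIM2.

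The clamp and its loader showed 1 rise among 6 genes (16.7%, beside 22.9% of all tested genes) and no fall (beside 15.6%). Their median log2 fold change was 0.171. RFC2, a small subunit of the clamp loader (chr7:74231499-74254458, minus strand, ENSG00000049541), had 35.7, 35.2 and 37.4 FPKM in the CuB libraries, against 25.1, 27.9 and 25.8 FPKM in the DMSO libraries. All CuB values exceeded all DMSO values (log2 fold change 0.44, SE 0.076, adjusted p = 0.00418). The remaining loader genes had positive log2 fold changes without a call, of 0.17 for RFC1, 0.07 for RFC3, 0.17 for RFC4 and 0.19 for RFC5, with adjusted p between 0.166 and 0.748. RFC2 was thus the loader gene that passed, and its difference from the others was not tested.

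PCNA, the sliding clamp and the most abundant of the 47 genes per length (chr20:5114953-5126626, minus strand, ENSG00000132646), had 123, 117 and 113 FPKM in the CuB libraries, against 131, 119 and 136 FPKM in the DMSO libraries. The groups overlapped at DMSO replicate 2, and the log2 fold change of -0.12 did not pass (95% interval -0.31 to 0.06, adjusted p = 0.247). It was called lower at equal fragment totals, with a log2 fold change of -0.29 and an adjusted p of 0.0226, and under quantile normalization (adjusted p = 0.0196).

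Genes of single-strand binding, flap removal and ligation went in both directions. Of 5, 1 rose (20%, beside 22.9% of all tested genes) and 1 fell (20%, beside 15.6%). Their median log2 fold change was -0.0951. RPA is a trimer that coats single-stranded DNA at the fork. Its middle subunit RPA2 had 38.6, 40.0 and 38.0 FPKM in the CuB libraries, against 30.4, 30.2 and 30.9 FPKM in the DMSO libraries, well apart and tight (log2 fold change 0.34, SE 0.0677, adjusted p = 0.00804). Its smallest subunit RPA3 had 9.41, 8.11 and 9.97 FPKM in the CuB libraries, against 11.3, 11.6 and 11.1 FPKM in the DMSO libraries, with every CuB value below every DMSO value (log2 fold change -0.28, SE 0.0934, adjusted p = 0.0496). The largest subunit, RPA1, had 29.4, 29.8 and 30.04 FPKM in the CuB libraries, against 31.9, 30.6 and 33.1 FPKM in the DMSO libraries. Its CuB values also lay below all DMSO values, but by little (log2 fold change -0.10, SE 0.0706, adjusted p = 0.324).

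The calls of RPA2 and RPA3 depended on settings. RPA2 was lost at 0.053 without CuB replicate 2, and 0.227 with quantile normalization and 0.0756 with equal fragment totals. RPA3 was lost at 0.0826 without CuB replicate 1, 0.186 without CuB replicate 2, 0.0552 without CuB replicate 3, 0.131 without DMSO replicate 1, 0.0735 without DMSO replicate 2 and 0.102 without DMSO replicate 3, and 0.0507 to 0.0832 under 4 further settings without a replicate block, namely pseudocount of 0.1 FPKM, no filter, no intensity trend and voom on recovered fragments. RPA1 was called lower at equal fragment totals (adjusted p = 0.0269) and under quantile normalization (adjusted p = 0.0245).

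FEN1, the flap endonuclease that trims Okazaki fragments, had 55.5, 64.0 and 71.7 FPKM in the CuB libraries, against 73.4, 80.5 and 74.5 FPKM in the DMSO libraries. All CuB values were below all DMSO values, but CuB replicate 3 lay near DMSO replicate 1 (log2 fold change -0.26, SE 0.105, adjusted p = 0.0917). FEN1 was called lower without CuB replicate 3 (adjusted p = 0.0495) and at equal fragment totals (adjusted p = 0.0209). LIG1, the ligase that seals those fragments, had 8.57, 9.84 and 10.9 FPKM in the CuB libraries, against 6.29, 8.63 and 6.37 FPKM in the DMSO libraries. Here the groups overlapped at DMSO replicate 2 (log2 fold change 0.42, SE 0.14, adjusted p = 0.0515). LIG1 passed without CuB replicate 1 (adjusted p = 0.0481) or without DMSO replicate 2 (adjusted p = 0.00929). In all it passed under 6 of 17 alternative settings, and under none of the 3 rescalings (adjusted p of 0.111 to 0.175).

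Nucleotide supply had 2 rises among 4 genes (50%, beside 22.9% of all tested genes) and no fall (beside 15.6%). The median log2 fold change was 0.376. RRM2, the subunit of ribonucleotide reductase that limits its activity to S phase (chr2:10120698-10131419, plus strand, ENSG00000171848), had 51.1, 43.0 and 42.3 FPKM in the CuB libraries, against 31.9, 25.8 and 32.8 FPKM in the DMSO libraries. All CuB values stood above all DMSO values (log2 fold change 0.58, SE 0.121, adjusted p = 0.00974). Under quantile normalization the RRM2 call was lost (adjusted p = 0.074). Of the exonic bases of RRM2 20.2% are shared with a transcript on the same strand.

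The large subunit RRM1 had 55.7, 49.6 and 50.3 FPKM in the CuB libraries, against 48.4, 39.5 and 50.3 FPKM in the DMSO libraries, which overlap, and did not pass (log2 fold change 0.17, 95% interval -0.08 to 0.43, adjusted p = 0.249). TK1, thymidine kinase of the salvage pathway (chr17:78174075-78187233, minus strand, ENSG00000167900), had 57.7, 70.3 and 81.8 FPKM in the CuB libraries, against 36.8, 54.7 and 32.9 FPKM in the DMSO libraries. The groups stood just apart, with CuB replicate 1 lowest among the CuB libraries and DMSO replicate 2 highest among the DMSO libraries (log2 fold change 0.76, SE 0.206, adjusted p = 0.0257). The TK1 adjusted p was 0.0774 without CuB replicate 2, 0.0763 without CuB replicate 3, 0.0838 without DMSO replicate 1 and 0.0717 without DMSO replicate 3, and 0.0749 with no filter on low values, 0.0822 with quantile normalization and 0.0605 with equal fragment totals. TYMS, thymidylate synthase, had 17.8, 21.2 and 21.5 FPKM in the CuB libraries, against 18.1, 20.8 and 18.8 FPKM in the DMSO libraries, which overlap (log2 fold change 0.06, 95% interval -0.18 to 0.30, adjusted p = 0.659). Of the exonic bases of TYMS 46.6% are shared with ENOSF1 and TYMSOS on the opposite strand.

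Among the 6 regulators of G1/S none rose (beside 22.9% of all tested genes) and 1 fell (16.7%, beside 15.6%). Their median log2 fold change was 0.160. CCNE1, cyclin E1, the partner of CDK2 at S-phase entry (chr19:29811898-29824308, plus strand, ENSG00000105173), had 6.06, 5.46 and 7.42 FPKM in the CuB libraries, against 9.02, 8.48 and 9.42 FPKM in the DMSO libraries. Every CuB value was below every DMSO value (log2 fold change -0.46, SE 0.115, adjusted p = 0.0196, 95% interval -0.73 to -0.18). Its adjusted p was 0.0547 without CuB replicate 1, 0.0778 without CuB replicate 2, 0.0661 without DMSO replicate 1 and 0.0624 without DMSO replicate 3. CCNE2, cyclin E2, on chromosome 8, had 3.93, 4.13 and 3.68 FPKM in the CuB libraries, against 3.82, 3.40 and 4.01 FPKM in the DMSO libraries, with overlap (log2 fold change 0.05, SE 0.0925, adjusted p = 0.688).

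E2F1, an activating E2F factor (chr20:33675683-33686404, minus strand, ENSG00000101412), had 21.9, 30.3 and 33.1 FPKM in the CuB libraries, against 15.4, 25.1 and 12.5 FPKM in the DMSO libraries. CuB replicate 1 was the low CuB library and DMSO replicate 2, at 25.1 FPKM, the high DMSO library, so the groups overlapped. The log2 fold change of 0.69 was among the larger of the 47, yet its 95% interval was wide at 0.08 to 1.30 and it did not pass (adjusted p = 0.0737). Without DMSO replicate 2 E2F1 passed (adjusted p = 0.00839), as it did with the GC correction (adjusted p = 0.00397). In all it passed under 5 of 17 alternative settings, and under none of the 3 rescalings (adjusted p of 0.115 to 0.164). E2F2, a related activating factor and the lowest of the 47 genes per length, averaged 2.96 ± 0.414 FPKM with CuB and 2.80 ± 0.385 FPKM with DMSO (SD, n = 3 each), a log2 fold change of 0.06 (95% interval -0.24 to 0.35, adjusted p = 0.749).

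SLBP, the protein that binds the stem-loop of histone mRNAs made in S phase, had 49.6, 50.3 and 50.1 FPKM in the CuB libraries, against 42.9, 37.2 and 44.9 FPKM in the DMSO libraries. Its groups did not overlap, although the test was just missed (log2 fold change 0.26, SE 0.0883, adjusted p = 0.0524). SLBP passed under 3 of 17 alternative settings. Under the 3 rescalings its log2 fold change was only 0.03 to 0.16 (adjusted p of 0.200 to 0.847). UHRF1, which carries DNA methylation through replication, had 39.7, 50.2 and 55.3 FPKM in the CuB libraries, against 33.8, 45.5 and 33.0 FPKM in the DMSO libraries, with overlap at CuB replicate 1 and DMSO replicate 2 (log2 fold change 0.36, SE 0.165, adjusted p = 0.124). UHRF1 passed without DMSO replicate 2 (adjusted p = 0.0281). That was 1 of 3 passes under 17 alternative settings, with none under the 3 rescalings (adjusted p of 0.259 to 0.523).

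Summed over the 47 genes, the level was 1279, 1338 and 1385 FPKM in the CuB libraries, against 1084, 1125 and 1096 FPKM in the DMSO libraries. As a share of all fragments the same genes took 0.457%, 0.487% and 0.504% with CuB, against 0.425%, 0.445% and 0.428% with DMSO. Both sums were higher in every CuB library than in any DMSO library. By role the deposited FPKM sums did not overlap for origin licensing, the helicase, the polymerases and primase, nucleotide supply or the G1/S regulators. At equal fragment totals, a scaling of the sums added after seeing the data, CuB sums stayed above all DMSO sums for origin licensing, the helicase and nucleotide supply. On that scale the polymerases and primase overlapped (64.0 to 72.8 with CuB and 64.0 to 66.5 with DMSO), as did the G1/S regulators (113 to 142 with CuB and 109.7 to 127 with DMSO). Sums of single-strand binding, flap and ligation genes, which overlapped as deposited, were then lower in every CuB library (129 to 149) than in any DMSO library (158 to 167), and the sum of all 47 genes was 1169 to 1284 with CuB and 1121 to 1166 with DMSO. Helicase genes summed to 372, 409 and 434 FPKM with CuB, against 286, 323 and 283 FPKM with DMSO. Clamp and loader genes, led by PCNA, summed to 269.95, 251 and 243 FPKM with CuB, against 249.85, 227 and 265 FPKM with DMSO, which overlap.

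**Figure D3:**
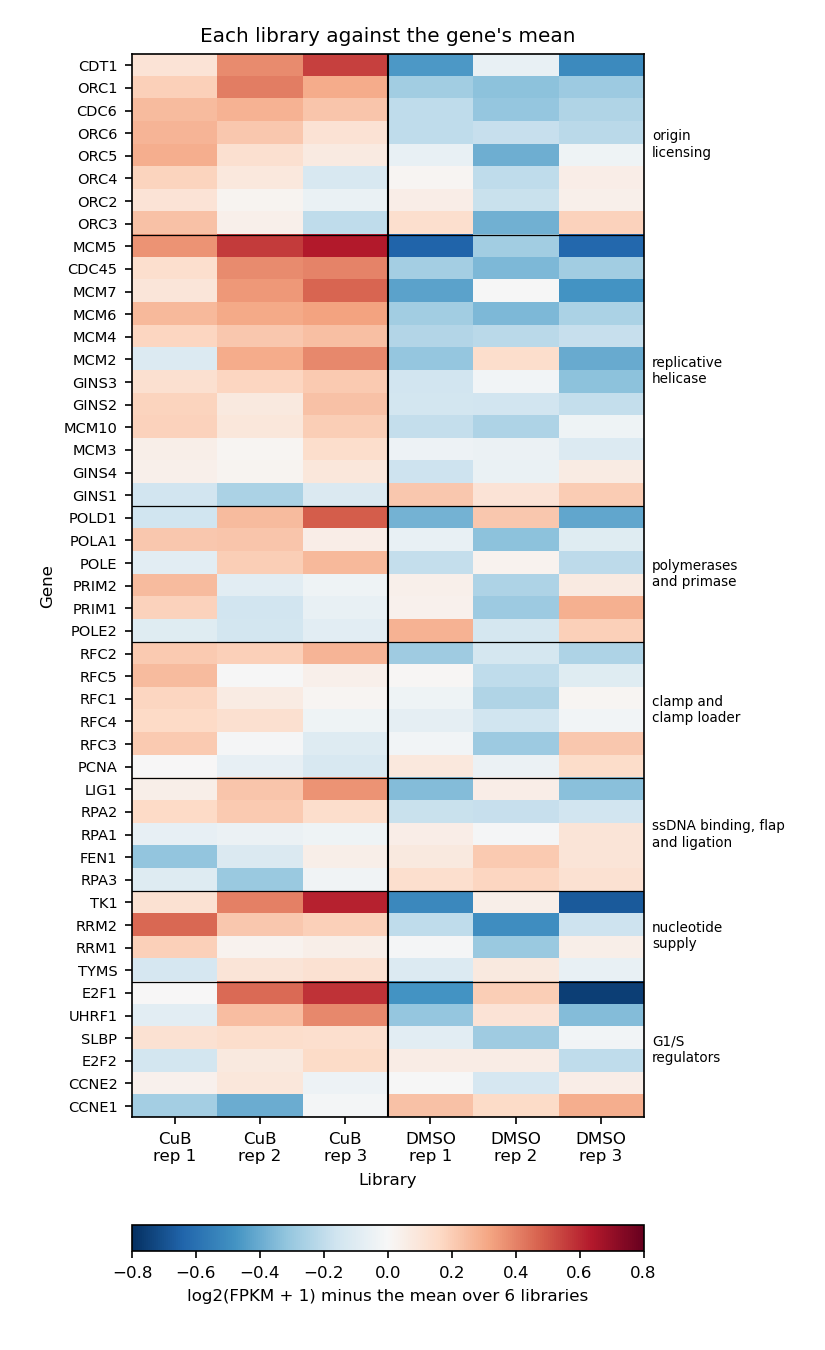
Log2(FPKM + 1) of each gene in each library minus the gene's mean over the 6 libraries, with the CuB libraries left of the DMSO libraries and genes grouped by role; red is above the mean and blue below. The CuB columns are redder for most licensing and helicase genes, GINS1 and CCNE1 run the other way, and DMSO replicate 2 differs from the other DMSO columns in genes such as E2F1, POLD1 and TK1.

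Inside each group the spread followed transcript GC content. The library of DMSO replicate 2 was above both other DMSO libraries in 17 of the 47 genes, whose median GC content was 56.4%, and below both in 26, whose median was 43.4%. Across the 47 genes its difference from the mean of DMSO replicates 1 and 3 had a Pearson r of 0.873 and a Spearman rho of 0.849 with GC content. For CuB replicate 1 against the mean of CuB replicates 2 and 3 the values were -0.881 and -0.866. These are descriptions across genes of the same libraries, which are not independent replicates. E2F1, at 62.5% GC, lay 0.81 above the other DMSO libraries in DMSO replicate 2 and -0.51 from the other CuB libraries in CuB replicate 1, on the log2 scale.

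The fold change itself was less tied to GC content, with a Pearson r of 0.463 and a rho of 0.496 over the 47 genes. Its rho was -0.225 with genomic span and 0.332 with mean FPKM, with an r of -0.128 for span and 0.0887 for FPKM. Genes that rose had a median span of 23.0 kb, those that fell 44.9 kb and those not called 33.8 kb. After a correction of each library for GC content 29 of the 47 genes were called higher and 5 lower (72.3% called, beside 57.6% of all tested genes). The genes added were E2F1, FEN1, LIG1, MCM2, MCM3, ORC5, PCNA, POLD1, POLE, RFC1, RFC4, RFC5, RRM1, SLBP and UHRF1. PCNA and FEN1 were the ones added as lower.

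**Figure D4:**
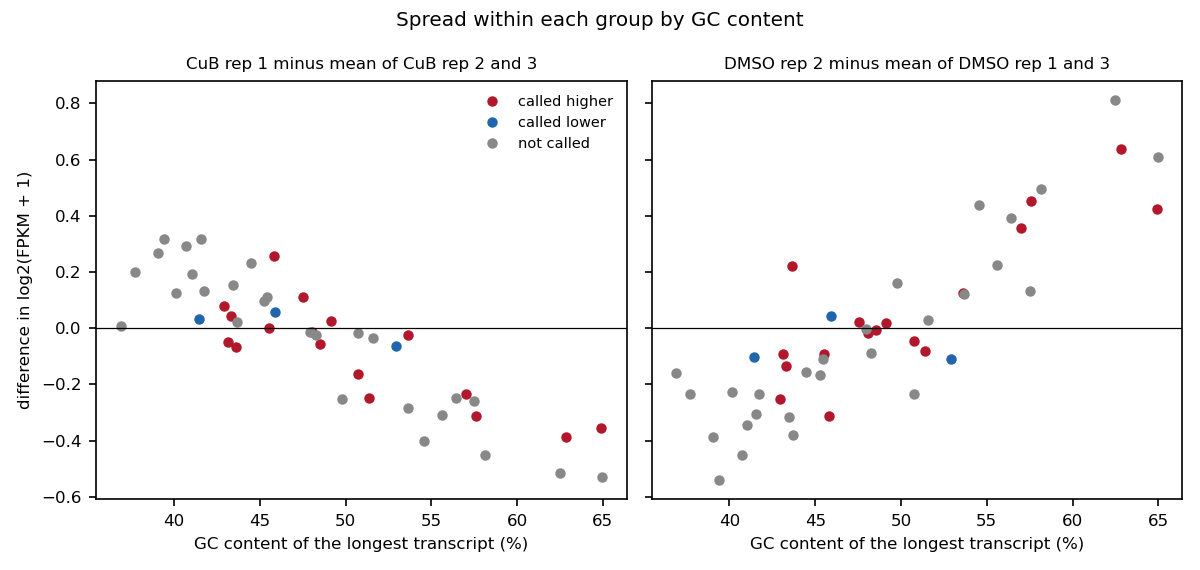
For each of the 47 genes, the GC content of its longest transcript against the difference in log2(FPKM + 1) between CuB replicate 1 and the other CuB libraries (left) and between DMSO replicate 2 and the other DMSO libraries (right); colours mark genes called higher, lower or not called. The points fall with GC content on the left (r = -0.881) and rise with it on the right (r = 0.873).

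Across 17 alternative settings 7 of the 20 called genes passed in the same direction every time, namely ORC1, ORC6, CDC6, MCM5, MCM6, CDC45 and RFC2. Of the 20, 11 passed under all 3 rescalings of the libraries, which adds CDT1, CCNE1, GINS1 and RPA3. No called gene changed sign under any of the 17. Those that did were 13 genes without a call, with reported log2 fold changes from -0.02 (PRIM1) to 0.17 (RRM1). MCM3, at 0.13 as reported, had -0.10 with quantile normalization and -0.03 at equal fragment totals.

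**Figure D5:**
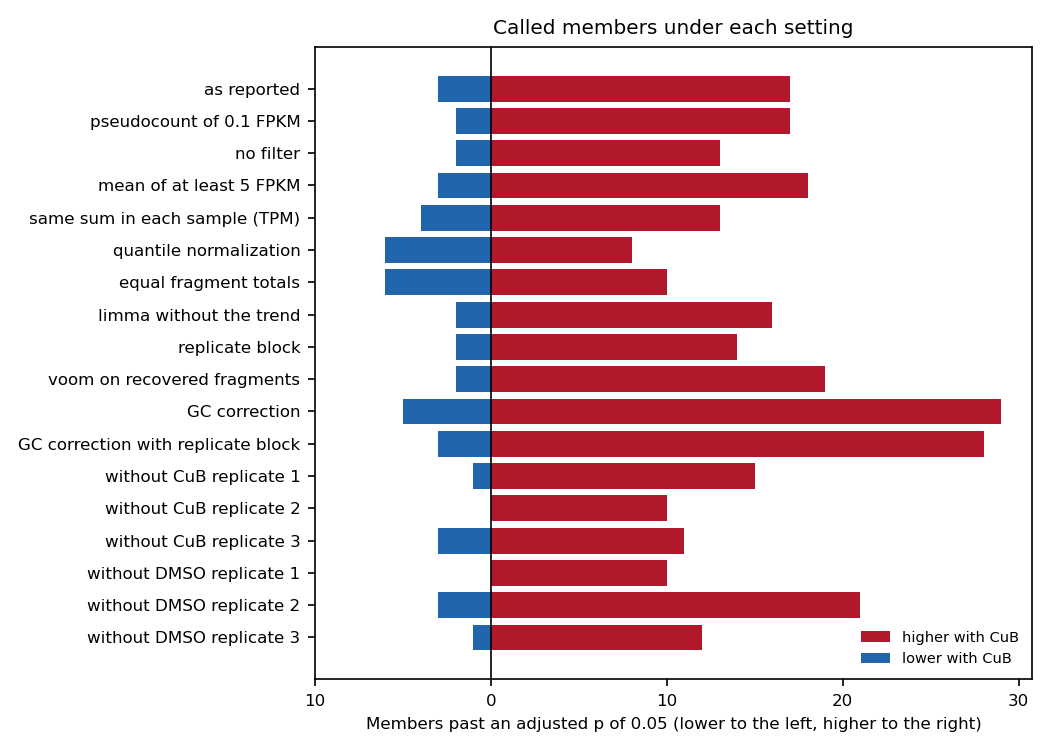
Number of the 47 genes called higher (red, to the right) and lower (blue, to the left) with CuB as reported and under each alternative setting. The bars run from 8 higher and 6 lower under quantile normalization to 29 higher and 5 lower with the GC correction.

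Related genes outside the 47 were read from lists of the same pathways. Of 30 other fork and checkpoint genes 29 were tested, with a median log2 fold change of 0.210. Of these 6 rose (20.7%, beside 22.9% of all tested genes) and 2 fell (6.90%, beside 15.6%). CHEK1, the kinase of the replication checkpoint, averaged 19.0 ± 1.11 FPKM with CuB and 11.6 ± 0.677 FPKM with DMSO (log2 fold change 0.67, adjusted p = 0.00121). TIPIN and CLSPN, which travel with the fork and serve that checkpoint, had log2 fold changes of 0.58 (adjusted p = 0.00535) and 0.47 (adjusted p = 0.0115). DSCC1, part of an alternative clamp loader, fell by 0.56 on the log2 scale (adjusted p = 0.00265). Of 18 other nucleotide synthesis genes CTPS1 rose (log2 fold change 0.52, adjusted p = 0.00215) and SHMT1 fell (-0.53, adjusted p = 0.0035), with a median of 0.129. Rises were 5.56% of that list, beside 22.9% of all tested genes, and falls 5.56%, beside 15.6%.

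Of 20 other genes of G1/S and the RB-E2F pathway 7 rose (35%, beside 22.9% of all tested genes). In the same list 4 fell (20%, beside 15.6%), and the median log2 fold change was 0.222. E2F7, a repressive E2F factor, averaged 44.5 ± 5.29 FPKM with CuB and 8.97 ± 0.936 FPKM with DMSO (SD, n = 3 each), a log2 fold change of 2.19 (adjusted p = 2.97e-05), more than that of any of the 47 genes. CDKN1A, the CDK inhibitor p21, averaged 67.5 ± 2.99 FPKM with CuB and 26.8 ± 3.91 FPKM with DMSO (log2 fold change 1.31, adjusted p = 0.000213). CDC25A, the phosphatase that activates CDK2, rose by 0.68 (adjusted p = 0.0013), and RBL2, an RB family member, fell by 0.74 (adjusted p = 0.00512), both on the log2 scale. Of 20 G2/M genes 4 rose (20%) and 3 fell (15%), close to the 22.9% and 15.6% of all tested genes, with a median of 0.00725. Among them CDC20 had the largest rise (0.81, adjusted p = 0.00205) and KIF20A the largest fall (-0.47, adjusted p = 0.00365). Whether the 47 genes differ from these lists was not tested.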

How the data were processed

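Per the labels' protocols, 1 µg of RNA went into each TruSeq library, a kit without strand information. The authors deposited FPKM for 58735 genes, and the submitters' processing notes name GRCh38. The aligner, counter and scaling were not given in the sources used here. Columns were matched to samples by name, and 0 columns were left unused. In each library 100% of values above 0 were whole fragments within a tolerance of 0.01, which gave totals per library. Coordinates of all 58735 genes were identical to GENCODE 29, which gave GC content and shared exonic bases.

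The 13273 genes averaging at least 1 FPKM over the 6 libraries entered the test on the log2(FPKM + 1) scale. The 2 groups were compared with limma 3.58.1 (R 4.3.3, statmod 1.5.0), by a two-sided moderated test with an intensity trend and 4 residual degrees of freedom. Benjamini-Hochberg adjustment ran over every tested gene, with a threshold of 0.05. The fit was tested on simulated counts with known fold changes, which lacked the GC and scaling differences between libraries described above. Plots were drawn with matplotlib 3.10.9 in Python 3.11.15.

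The 47 genes and the other lists were chosen with earlier results of these data known. The text names all 47 genes, up to 4 passing genes with the largest change of each related list, and the cell type markers. The 17 alternatives were a pseudocount of 0.1, no filter, a minimum mean of 5 FPKM, 3 rescalings, limma without the trend, the replicate number as a block, voom on the recovered fragments, a GC correction (lowess, span 0.3) without and with the block, and each library left out in turn. No raw count table was used.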

Additional observations from a re-analysis of the deposited data

How the results depend on the processing

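Of the 47 genes 17 were called higher and 3 lower. Quantile normalization gave 8 higher and 6 lower, equal fragment totals 10 and 6, and the GC correction 29 and 5. The GC correction with the block gave 28 higher and 3 lower (66.0% called, beside 54.5% of all tested genes). Leaving out each library in turn gave 10 to 21 higher and 0 to 3 lower, and 3262 to 5755 of all tested genes called, beside 5118. A minimum mean of 5 FPKM tested fewer genes and gave 3250 of all tested genes called. Among the libraries left out, the lowest counts of all genes were without CuB replicate 2 and the highest were without DMSO replicate 2. The causes were not tested, and such fits keep 2 libraries in a group. With the replicate number as a block 14 genes were higher, 2 were lower and 4443 of all tested genes were called. The calls that did not pass with the block were those of POLA1 (adjusted p = 0.0826), GINS2 (0.0571), GINS3 (0.0772), MCM10 (0.0596) and RPA3 (0.105), and with the block and the GC correction together those of GINS3 (0.0655) and RPA3 (0.073). Same-numbered CuB and DMSO libraries had correlations of their deviations of 0.269, 0.119 and -0.357, and CuB replicate 3 correlated best with DMSO replicate 2 (0.469), so the numbers were not taken to pair the libraries. Over single genes and settings 668 values kept their side of the threshold, 48 passed only under the alternative, 78 were lost and no called value reversed, while 13 genes without a call changed sign. Genes with few fragments, down to 160 in a library for POLE2, are measured less precisely than abundant ones.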
